A study of Mus musculus with 12 samples.

Results

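Proteasome genes were described in mouse liver with and without the ubiquitin ligase Siah2. The members were the rows of the count tables whose gene symbol began with Psma, Psmb, Psmc, Psmd, Psme, Psmf or Psmg followed by a digit, and 49 of the 23420 rows did so. The rule used the symbol alone, although it was set with earlier results of these data known. The proteasome is the protease that degrades proteins tagged with ubiquitin. Its 20S core is a barrel of alpha and beta subunits with the cutting sites on the inner face of certain beta subunits, and its 19S cap holds a ring of ATPases, which unfold the substrate, and non-ATPase subunits, which bind ubiquitin, remove it and hold the lid together. Under interferon, cells replace the cutting subunits with immunoproteasome versions that favour peptides for antigen presentation, and dedicated chaperones build core and cap. Siah2 acts upstream of the proteasome, as an enzyme that attaches ubiquitin.

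The 4 groups, each of 3 mice, were wild type females (WTF; mice 1089, 1090 and 1091), Siah2-/- females (KOF; 1070, 1104 and 1105), wild type males (WTM; 1055, 1086 and 1087) and Siah2-/- males (KOM; 1075, 1076 and 1081). All were on a C57BL/6 background, about 20 weeks of age, and their livers were taken at Zeitgeber time 10 h. The wild type and Siah2-/- mice came from related homozygous lines that were kept apart after an intercross of heterozygotes, so genotype and line cannot be told apart. RNA was counted by the QuantSeq 3′ method, which yields about 1 tag per transcript whatever its length, so counts per 1000000 reads (CPM, scaled by TMM) can be set side by side between genes without division by length, within the limits of 3′ end annotation. Values of single mice are given below in the order of the numbers above.

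Between 1293688 and 4056144 reads per mouse fell on genes, and the 49 members took from 0.442% to 0.606% of them. Wild type female 1091 stood apart. Its chi-square per degree of freedom against the other wild type females was 42.0 and 45.0, while the other pairs within a group gave 6.71 to 21.8, and its TMM scaling factor was 0.901, against 0.967 to 1.06 for the others, which raises its CPM. Calls that rest on it are given with and without it. Hepatocyte markers were high in every library, with Alb and 6 other genes summing to between 44119 and 57729 CPM. The summed markers of other cells were at 156 to 301 CPM for endothelium, 164 to 404 for stellate cells, 6.05 to 25.2 for bile duct, 10.8 to 57.4 for pancreatic acinar cells, 0 to 26.4 for adipocytes and 8.47 to 154 for red blood cells, with Prss2, Ctrb1 and Plin1 at 0 throughout. Reads on Siah2 itself were present in all groups (9.42 to 27.1 CPM) and do not check the deletion, because the sources used here do not say where the counted 3′ end lies relative to the deleted part. Xist and Ddx3y matched the sex label of each of the 12 mice.

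Transcripts of 46 members were abundant enough for testing in every comparison. The remaining 3 were Psma8, an alpha subunit of the testis (18 reads over all 12 mice), Psmb11, the beta subunit of thymic epithelium (0 reads), and Psmc3ip (25 reads), which shares the prefix but is a recombination cofactor and no proteasome part. With the fewest reads of any library, a count of 0 allows a level of up to 2.32 CPM before scaling (3 counts, counting error only). The means of the 46 over the 12 mice ran from 12.6 CPM for the core chaperone Psmg4 to 415 CPM for the core subunit Psmb4, a range of 32.8-fold. Of the 46, 21 reached 100 CPM, and the median was 90.9 CPM.

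Subunits that enter the same ring in equal shares did not have equal transcript levels. Among the 7 alpha subunits, which form the gate of the core, Psma4 had the highest mean over the 12 mice, with 309 ± 60.1 CPM in WTF, 349.5 ± 59.6 in KOF, 379 ± 74.4 in WTM and 377 ± 36.9 in KOM (mean ± SD, n = 3), although in WTF Psma7 was higher at 374 ± 48.6 CPM. Psma5 was lowest with 44.3 ± 18.4 CPM in WTF, 60.3 ± 4.72 in KOF, 56.9 ± 27.4 in WTM and 57.6 ± 8.96 in KOM. The 6.46-fold gap between their means over all mice was smaller than that among the constitutive beta subunits, where Psmb4, a structural subunit, averaged 415 CPM and Psmb2 averaged 19.8 CPM. Psmb4 had 458 ± 176 CPM in WTF, 367 ± 44.2 in KOF, 426 ± 7.99 in WTM and 409 ± 38.2 in KOM, and Psmb2 had 17.6 ± 4.34 CPM in WTF, 23.6 ± 1.63 in KOF, 20.1 ± 8.68 in WTM and 18.0 ± 3.22 in KOM.

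The 6 ATPases of the cap spanned 11.7-fold. Psmc3 held 350.4 ± 107 CPM in WTF, 267 ± 47.1 in KOF, 318 ± 41.0 in WTM and 346 ± 17.9 in KOM. Psmc4 held 25.9 ± 0.757 CPM in WTF, 21.4 ± 5.32 in KOF, 29.5 ± 4.68 in WTM and 33.0 ± 3.53 in KOM. The 11 non-ATPase subunits were closer together, within 4.69-fold. Over the 12 mice Psmd4, a ubiquitin receptor, had the highest mean, with 286 ± 126 CPM in WTF, 184 ± 6.30 in KOF, 265 ± 49.2 in WTM and 272 ± 44.3 in KOM, and Psmd12, a lid subunit, had the lowest, with 48.5 ± 13.5 CPM in WTF, 54.3 ± 4.50 in KOF, 59.9 ± 7.60 in WTM and 51.8 ± 3.67 in KOM. In KOF the order differed, with Psmd2 highest at 218 ± 29.6 CPM and Psmd13 lowest at 48.8 ± 4.71 CPM.

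The activators, which open the core without ATP, differed more than the non-ATPases, by 10.2-fold. Psme2, a subunit of the interferon-induced PA28 ring, had 171 ± 28.5 CPM in WTF, 181 ± 35.3 in KOF, 142 ± 22.7 in WTM and 140.0 ± 21.6 in KOM, and Psme3, the nuclear form, had 15.8 ± 6.04 CPM in WTF, 15.2 ± 0.757 in KOF, 13.4 ± 5.08 in WTM and 17.8 ± 5.39 in KOM. Psmf1, the inhibitor PI31, was among the rarest members with 17.7 ± 3.45 CPM in WTF, 16.1 ± 3.19 in KOF, 11.7 ± 2.95 in WTM and 14.8 ± 2.62 in KOM.

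Transcripts of the chaperones were rarer than those of most subunits. Among the chaperones that assemble the base of the cap, Psmd9 had the highest mean over the 12 mice, with 32.8 ± 6.97 CPM in WTF, 38.7 ± 0.706 in KOF, 34.1 ± 7.02 in WTM and 43.7 ± 6.39 in KOM. Psmd5 had the lowest, with 18.0 ± 12.8 CPM in WTF, 18.9 ± 2.65 in KOF, 26.8 ± 5.73 in WTM and 26.3 ± 4.57 in KOM, and its wide spread in WTF came from mouse 1091, which had 3.82 CPM. The third, Psmd10, had 34.4 ± 2.92 CPM in WTF, 27.0 ± 4.26 in KOF, 23.5 ± 3.62 in WTM and 25.6 ± 1.43 in KOM, above Psmd9 in WTF and below Psmd5 in both male groups. Of the core chaperones, Psmg3 had 63.5 ± 11.6 CPM in WTF, 39.9 ± 8.66 in KOF, 42.9 ± 15.2 in WTM and 51.4 ± 2.74 in KOM and Psmg4 had 14.9 ± 4.84 CPM in WTF, 11.4 ± 6.26 in KOF, 14.02 ± 6.49 in WTM and 10.1 ± 4.20 in KOM. The plot of members by class shows these levels for each mouse.

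**Figure D1:**
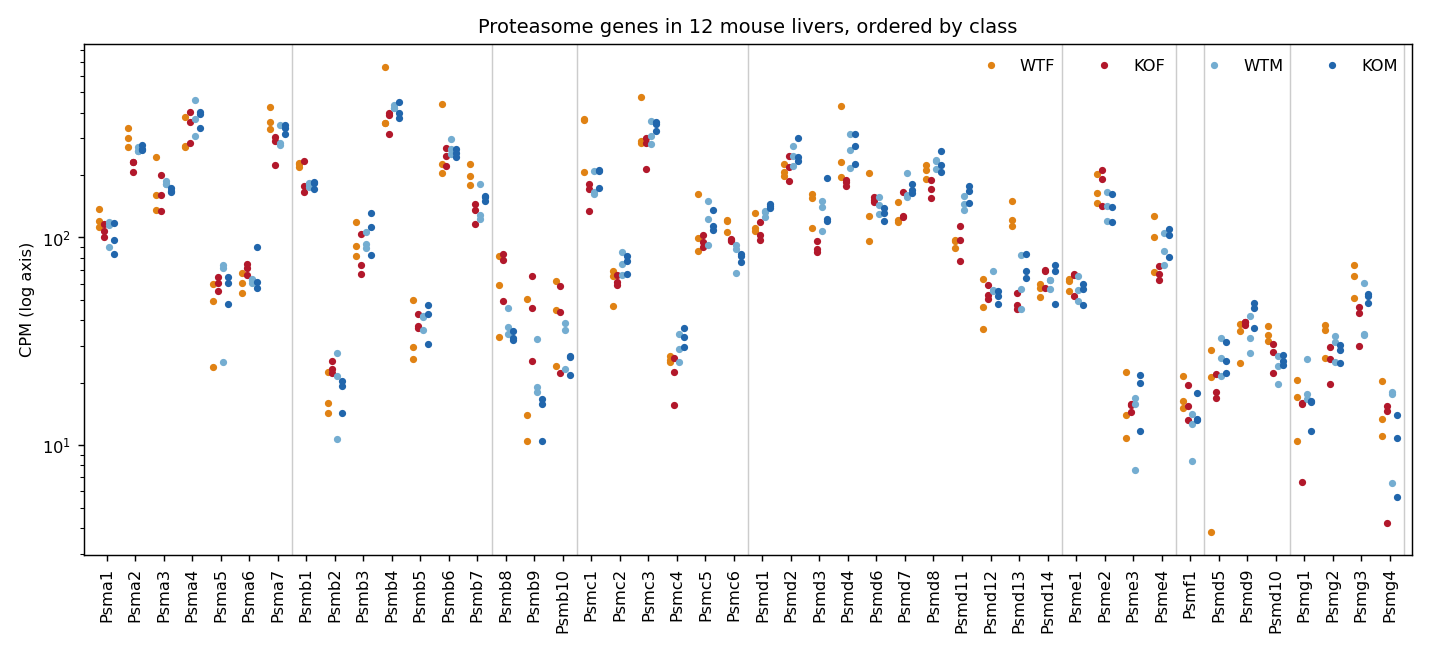
CPM of the 46 tested members in each of the 12 livers (log axis), ordered by class, with grey lines between classes and 1 colour per group. Members of a class differed by up to 20.9-fold (beta subunits).

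Summed over all members, the proteasome held 5969 ± 685 CPM in WTF, 5034 ± 542 in KOF, 5589.5 ± 339 in WTM and 5696 ± 328 in KOM. The single mice gave 5509, 5642 and 6756 CPM in WTF, 5518, 5137 and 4448 in KOF, 5980.1, 5375 and 5414 in WTM and 5997, 5346 and 5744 in KOM. The highest sum belonged to wild type female 1091 and the lowest to Siah2-/- female 1105. On these scaled values the groups overlapped in both sexes, narrowly in females (5509 CPM in WTF 1089, 5518 in KOF 1070). The female overlap depended on the scaling. As a share of unscaled counts the members took 0.581%, 0.588% and 0.606% in WTF and 0.553%, 0.518% and 0.442% in KOF, which did not overlap. The 14 constitutive core subunits summed to 2719 ± 473 CPM in WTF, 2328 ± 252 in KOF, 2536 ± 67.0 in WTM and 2544 ± 157 in KOM, again with overlap.

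The ATPase sums of the female groups did not overlap, and this rested on Psmc1. The 6 genes summed to 944, 972 and 1036 CPM in WTF and 765, 743 and 611 in KOF, and without Psmc1 the other 5 summed to 575, 600.5 and 831 in WTF and 584, 572 and 476 in KOF, which overlap. The male livers summed to 907, 763 and 743 in WTM and 844, 822 and 887 in KOM and overlapped. The non-ATPase sums overlapped narrowly in females, with 1405, 1538 and 1747 in WTF and 1413, 1326 and 1238 in KOF. The core chaperones gave 146, 120.0 and 118 in WTF and 93.6, 108 and 66.8 in KOF, which did not overlap, but without Psmg3 they gave 71.8, 54.6 and 66.9 in WTF and 50.3, 61.1 and 36.7 in KOF and overlapped. Leaving these genes out was chosen after the data were seen. These sums are a description, and no test was made of them.

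**Figure D2:**
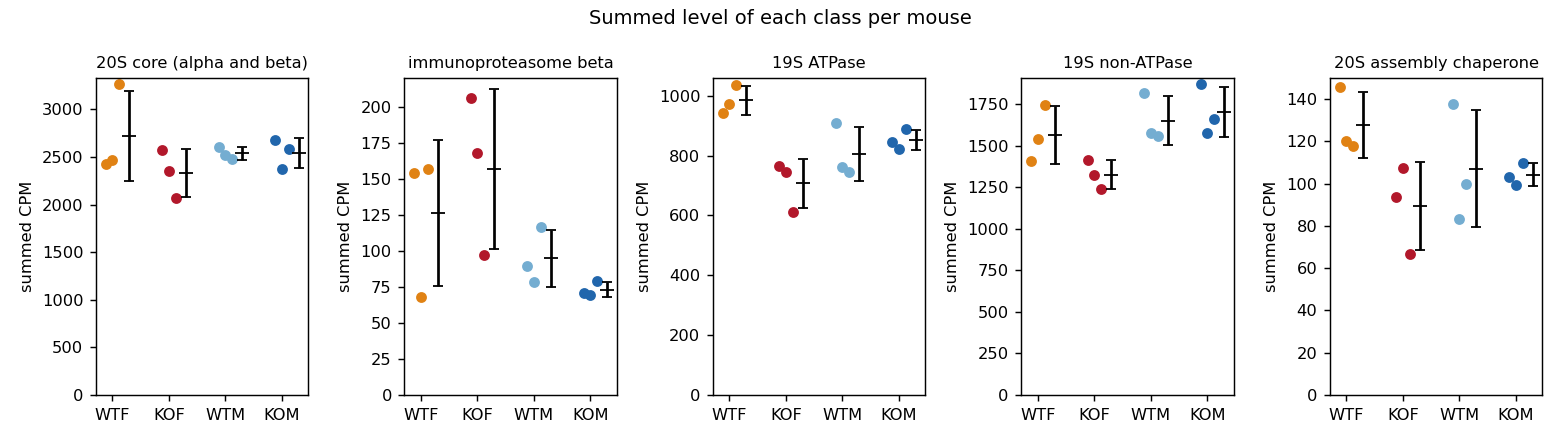
Summed CPM of 5 classes in each mouse (points) with group mean ± SD (n = 3 mice, black bars), on axes that start at 0. The ATPase sums of the 3 KOF livers (611 to 765 CPM) lie below those of the 3 WTF livers (944 to 1036 CPM), which no longer holds without Psmc1 (476 to 584 against 575 to 831 CPM), and the male groups overlap in all 5 classes.

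All tests were two-sided, and their p-values measure the spread between these mice. The first question was whether loss of Siah2 changed these genes in females. The largest difference was in Psmd13, a lid subunit of the cap, with 128 ± 19.3 CPM in WTF and 48.8 ± 4.71 CPM in KOF, and next came Psmc1, an ATPase of the base, with 315 ± 94.9 CPM in WTF and 163 ± 24.5 CPM in KOF. EdgeR's quasi-likelihood test called 0 of the 46 members at an adjusted p of 0.05, and 0 of all 9465 genes tested (0%). At an unadjusted p under 0.05 there were 5 members, all lower in KOF, against 15.6% of all genes. DESeq2 called 2 members, both lower, against 3.70% of the 8185 genes it adjusted. With library 1091 left out, edgeR called 6 members, all lower in KOF, against 9.64% of 9709 genes. The shares of members, 10.9%, 4.35% and 13.0%, lay near those backgrounds.

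Psmd13 lies on chromosome 7 of GRCm38 from 140882394 to 140898642. Its values were 121, 150.0 and 113 CPM in WTF, 54.1, 47.1 and 45.1 in KOF, 82.6, 56.3 and 45.2 in WTM and 83.7, 68.6 and 63.8 in KOM. All 3 WTF livers stood above the other 9 livers, which reached 83.7 CPM at most. KOF relative to WTF gave a log2 fold change of −1.40 (standard error 0.23, 95% interval −1.91 to −0.90). The adjusted p was 0.0793 from edgeR, 1.22e-04 from DESeq2 and 0.00232 from edgeR without 1091. With 1091 kept, edgeR called it without a filter (adjusted p = 5.93e-04) and in 1 fit of all 12 mice (adjusted p = 0.00701). Whether it is called thus rests on the tool and, in edgeR, on that library, the filter and the mice that share the fit. With any 1 mouse left out, its log2 fold change from edgeR stayed between −1.48 and −1.28. DESeq2 called it in each such fit, at an adjusted p of at most 0.0251.

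Psmc1 lies on chromosome 12 from 100110202 to 100123364. Its values were 369, 372 and 206 CPM in WTF, 181, 172 and 135 in KOF, 208, 165 and 162 in WTM and 174, 211 and 208 in KOM. The KOF livers were below the WTF livers, but 1091 was far below the other WTF mice and inside the male range. The log2 fold change was −0.97 (standard error 0.28, 95% interval −1.59 to −0.34), with an adjusted p of 0.148 from edgeR, 0.0447 from DESeq2 and 0.00508 from edgeR without 1091. With 1091 kept, Psmc1 was called by edgeR without a filter (adjusted p = 0.0497) and in 1 fit of all 12 mice (adjusted p = 0.0315).

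The promoter windows of these genes, 250 bases before to 50 after the start site, are printed because the members with the largest female difference can then be compared at the sequence level. Both are from RefSeq on GRCm38.p6, plus strand, Psmd13 at chr7:140882144-140882443 and Psmc1 at chr12:100109952-100110251.
Psmd13: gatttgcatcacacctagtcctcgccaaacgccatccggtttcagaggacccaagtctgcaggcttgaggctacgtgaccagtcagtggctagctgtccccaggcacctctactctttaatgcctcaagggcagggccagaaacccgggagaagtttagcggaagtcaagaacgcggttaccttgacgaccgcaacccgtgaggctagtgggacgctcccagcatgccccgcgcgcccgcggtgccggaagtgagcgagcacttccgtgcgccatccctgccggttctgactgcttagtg
Psmc1: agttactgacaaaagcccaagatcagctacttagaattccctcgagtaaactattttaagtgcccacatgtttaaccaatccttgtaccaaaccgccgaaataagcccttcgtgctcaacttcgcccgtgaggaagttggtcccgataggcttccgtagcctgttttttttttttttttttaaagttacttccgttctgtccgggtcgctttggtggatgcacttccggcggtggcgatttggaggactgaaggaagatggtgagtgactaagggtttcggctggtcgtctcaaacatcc
Neither window holds TGACNNNGC, the core of the antioxidant response element that NRF1 (Nfe2l1), the activator of proteasome genes, binds. Letters absent from a window say nothing of the factor itself.

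Psmd3, a scaffold of the lid, had 162, 156 and 111 CPM in WTF, 96.1, 88.4 and 84.9 in KOF, 149.8, 107 and 141 in WTM and 195, 120.2 and 123 in KOM. The WTF and KOF livers did not overlap. The female log2 fold change was −0.68 (standard error 0.23, 95% interval −1.19 to −0.17), with an adjusted p of 0.199 from edgeR, 0.156 from DESeq2 and 0.0154 from edgeR without 1091. The other members that edgeR called only without 1091 were Psmb7, the trypsin-like cutting subunit (log2 fold change −0.68), Psmg3 (−0.78) and Psme4, the activator PA200 (−0.75). With all mice these were −0.62, −0.67 and −0.56.

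Over the 46 members the female log2 fold changes had a median of −0.17, beside −0.03 over all 9465 genes. The median moved with single mice, to −0.09 without 1091, −0.07 without KOF 1105 (where that of all genes was −0.06) and −0.27 without KOF 1070. With all mice, 28 were negative and 18 positive. They were under 0.5 in size for 38 members, and the 95% interval reached a median of 0.57 to either side, so changes of about that size could not be told from 0 for most of them. In 11 members (23.9%) each KOF liver lay below each WTF liver, and in 0 members above. Over all genes tested, 11.9% lay below and 11.4% above in the same way. The 4 core chaperones were all negative (−0.67 to −0.30), and so were 5 of the 6 ATPases, 5 of the 7 constitutive beta subunits and the inhibitor. The alpha and non-ATPase classes were mixed, with 3 of 7 and 6 of 11 positive. Of the activators 2 of 4 were positive, and of the immunoproteasome subunits and the base chaperones 2 of 3 each.

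**Figure D3:**
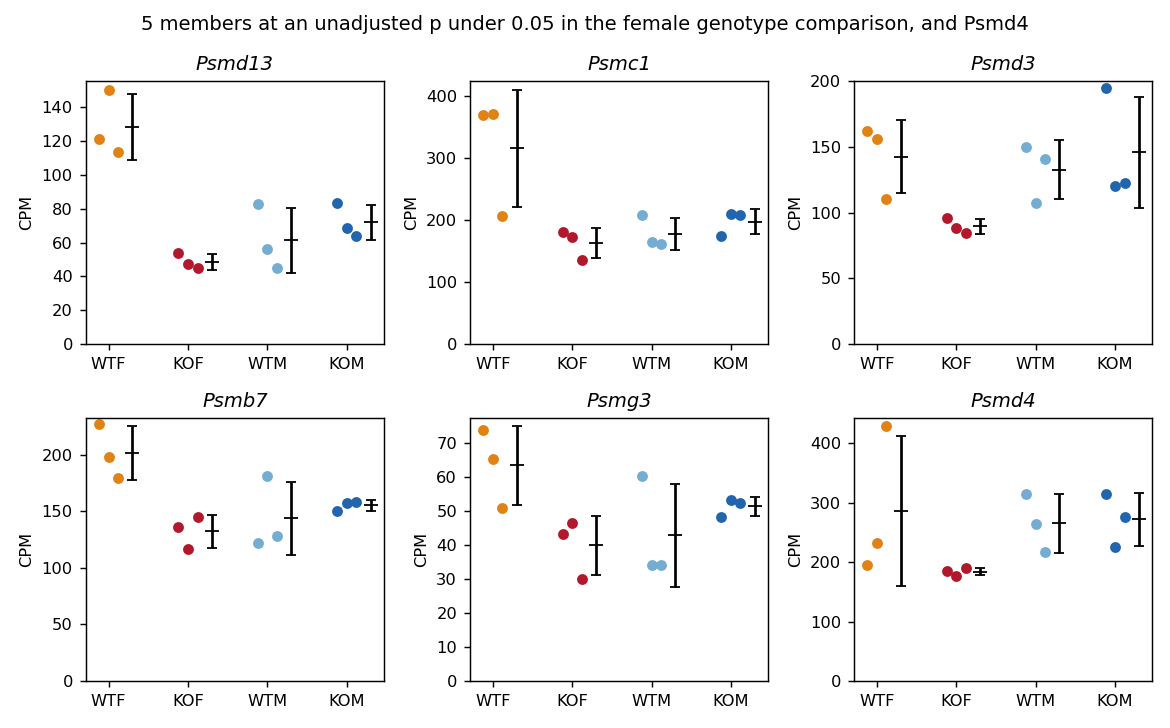
CPM of Psmd13, Psmc1, Psmd3, Psmb7 and Psmg3, the 5 members at an unadjusted p under 0.05 in females, and of Psmd4 (points, 1 per mouse; black bars, mean ± SD, n = 3 mice; axes start at 0). Psmd13 in WTF (113 to 150.0 CPM) lies above all other livers, and Psmd4 in WTF is spread by mouse 1091 at 429.7 CPM.

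In males the same question gave no called member. EdgeR called 0 of 46 and 0 of 8823 genes (0%), and DESeq2 called 0 members against 0.0370% of its genes. An unadjusted p under 0.05 was reached by 1 member, against 4.05% of all genes. That member was Psmb9, an immunoproteasome subunit, with 19.1, 18.1 and 32.5 CPM in WTM and 15.8, 10.4 and 16.8 in KOM. Its log2 fold change was −0.73 (standard error 0.29, 95% interval −1.35 to −0.10) with an adjusted p of 0.9999 from edgeR. The next by p were Psmb10 (−0.39) and Psmd9 (0.35), both at an adjusted p of 0.9999 from edgeR. The male changes were small, with a median of −0.00, 23 members positive and 23 negative, and 45 of 46 under 0.5 in size. The intervals were narrower than in females, with a median reach of 0.40.

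For Psmd13 the male log2 fold change was 0.25 (standard error 0.22, 95% interval −0.23 to 0.72), and for Psmc1 it was 0.14 (standard error 0.16, 95% interval −0.21 to 0.49). Both were small and positive, with intervals that include 0.

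**Figure D4:**
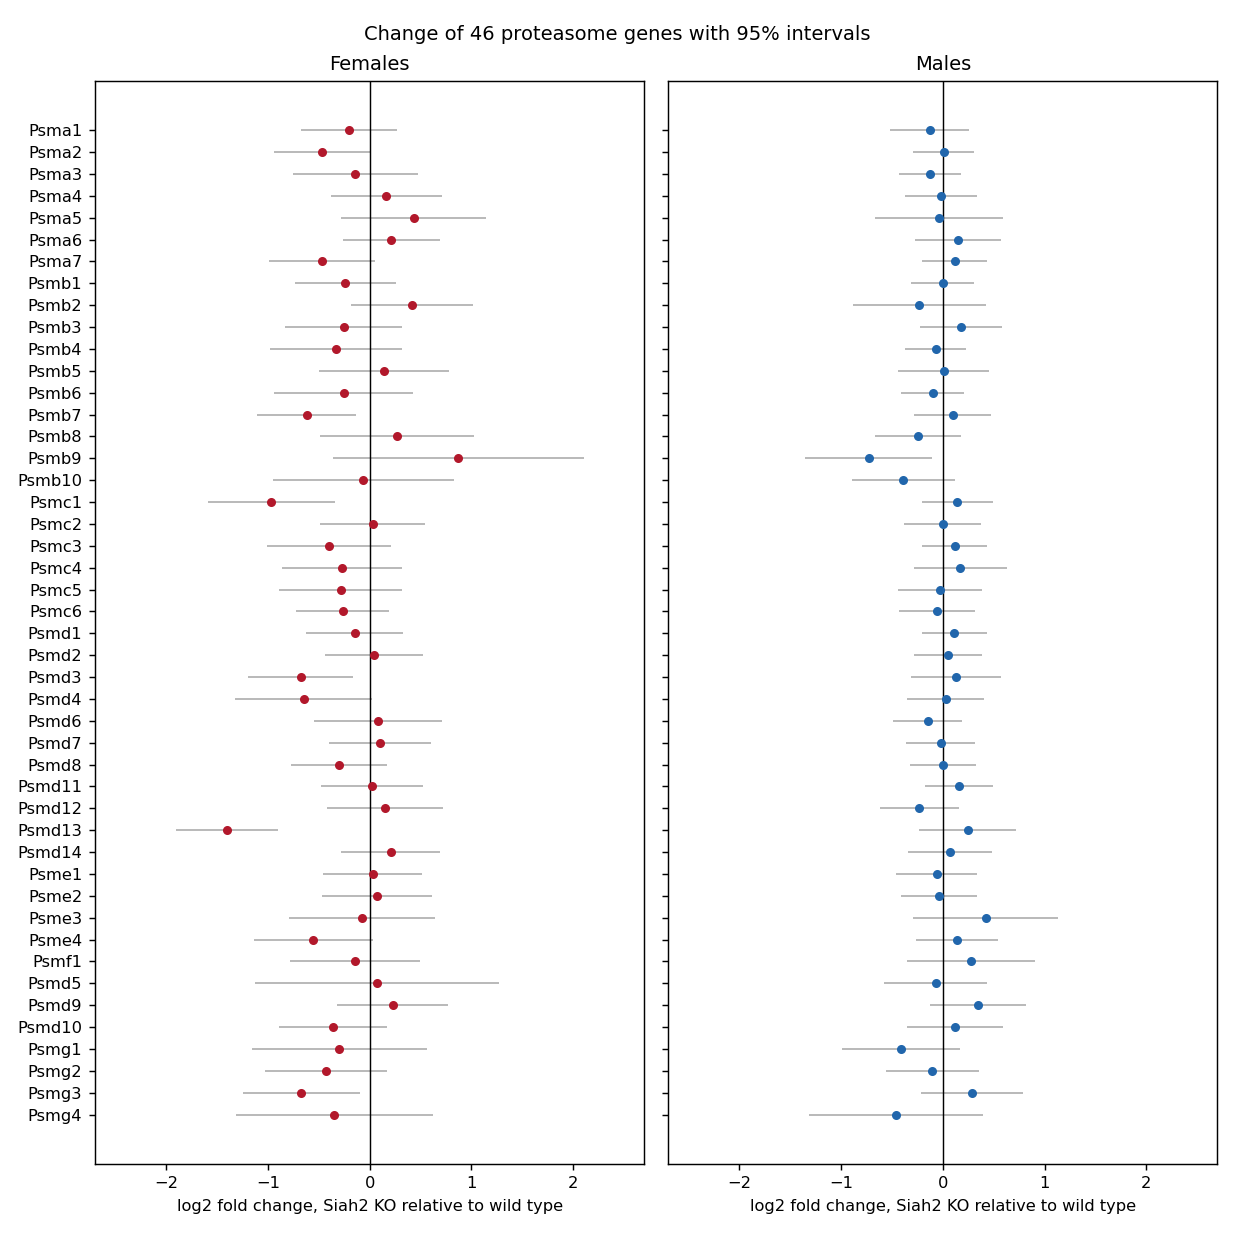
Log2 fold change of Siah2-/- relative to wild type for the 46 tested members in females (left) and males (right), with 95% intervals from edgeR. Psmd13 in females lies at −1.40 and Psmc1 at −0.97, while in males 45 of the 46 points lie within 0.5 of 0.

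The difference between the sexes was then tested directly, as the change in females minus that in males. EdgeR called 1 member, Psmd13, against 0.255% of 9806 genes, and 7 members had an unadjusted p under 0.05, against 14.1%. Psmd13 gave −1.64 (standard error 0.32, 95% interval −2.33 to −0.95) with an adjusted p of 0.0483 from edgeR and 7.46e-04 from DESeq2. The edgeR call depended on single mice. When any single mouse was omitted, the edgeR difference stayed between −1.88 and −1.47. Its adjusted p from edgeR was 0.00583 without 1091, above 0.05 without any 1 of the other 11 mice, and at most 0.165. DESeq2 called Psmd13 whichever mouse was omitted, at an adjusted p of 8.20e-06 to 0.0105.

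DESeq2 called 2 members, Psmd13 and Psmc1, against 3.32% of its genes, and edgeR without 1091 called the same 2 genes, against 5.15%. For Psmc1 the difference was −1.10 (standard error 0.33, 95% interval −1.80 to −0.41), with an adjusted p of 0.139 from edgeR, 0.0392 from DESeq2 and 0.00610 from edgeR without 1091. The other 5 members at an unadjusted p under 0.05 were Psmg3 (−0.94), Psmd3 (−0.80), Psmb7 (−0.72) and Psma7 (−0.58), all negative, and Psmb9 (1.61) in the positive direction. None of these 5 passed an adjusted p of 0.05 in the edgeR fit of all mice with its filter. Without a filter, Psmb9 was called by edgeR on all mice (1.60, adjusted p = 0.0135).

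With both sexes combined, edgeR and DESeq2 each called 0 members, where 0.0111% and 0.00560% of all genes were called. Psmd13 was the 1 member at an unadjusted p under 0.05, against 5.65% of genes, with −0.67 (standard error 0.27, 95% interval −1.24 to −0.10) and an adjusted p of 0.866 from edgeR. Psmc1 followed with −0.47 and Psmd9 with 0.29. Of the 46 members, 45 had a log2 fold change under 0.5 in size.

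The WTF and WTM livers were set against each other to ask about sex alone. The comparison shares its 3 WTF mice with the female genotype comparison, so the values of Psmd13 and Psmc1 are not independent between them. EdgeR called 0 members, against 1.39% of 9335 genes, and 5 had an unadjusted p under 0.05, against 15.2%. DESeq2 called Psmd13 alone, against 3.74% of its genes. For Psmd13, WTF relative to WTM gave 1.11 (standard error 0.27, 95% interval 0.50 to 1.71) on the log2 scale, with an adjusted p of 0.0883 from edgeR and 0.0217 from DESeq2. Psmc1 was at 0.85 (standard error 0.27, 95% interval 0.24 to 1.46) with an adjusted p of 0.183 from edgeR. Without 1091 edgeR called both as higher in WTF, against 7.73% of genes, at an adjusted p of 0.0169 for Psmd13 and 0.00563 for Psmc1. Psmd11, a lid subunit, was at −0.60, with an adjusted p of 0.214 from edgeR.

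Between Siah2-/- females and males more members differed. EdgeR called 5 of 46, and so did DESeq2. This share of 10.9% was near that of all genes, 11.5% for edgeR and 9.91% for DESeq2, and 13 members reached an unadjusted p under 0.05, or 28.3%, against 26.1% of all genes. Psmb8 and Psmb9, both immunoproteasome subunits, were higher in KOF, and Psmd11, Psmd3 and Psmd4, non-ATPase subunits of the cap, were lower. Of the 11 non-ATPases 8 were negative and 3 positive, and the third immunoproteasome subunit, Psmb10, was not called. In WTF relative to WTM the 3 immunoproteasome subunits were also positive (0.10 to 0.60), but 0 were called by edgeR. In 16 members (34.8%) all KOF livers lay below all KOM livers, and in 5 above, where 16.0% and 14.7% of all genes did so.

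Psmb8, the immunoproteasome counterpart of Psmb5, had 58.8, 33.3 and 81.2 CPM in WTF, 82.8, 78.1 and 49.4 in KOF, 34.4, 37.2 and 45.5 in WTM and 32.8, 32.1 and 35.5 in KOM. Each KOF liver exceeded each KOM liver, and the WTF livers spanned both. KOF relative to KOM gave 1.08 (standard error 0.21, 95% interval 0.64 to 1.52) with an adjusted p of 0.00341 from edgeR. Psmb9, the counterpart of Psmb6, had 50.5, 10.5 and 14.01 CPM in WTF, 65.2, 45.7 and 25.3 in KOF, 19.1, 18.1 and 32.5 in WTM and 15.8, 10.4 and 16.8 in KOM. Its log2 fold change was 1.68 (standard error 0.30, 95% interval 1.04 to 2.32) with an adjusted p of 0.00210 from edgeR. Psmb10, the counterpart of Psmb7, had 44.8, 24.0 and 61.5 CPM in WTF, 58.2, 43.8 and 22.3 in KOF, 35.9, 23.1 and 38.7 in WTM and 21.9, 26.9 and 26.6 in KOM, which overlapped, and its change of 0.76 (standard error 0.27, 95% interval 0.18 to 1.35) did not pass at an adjusted p of 0.0856 from edgeR.

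In the female genotype comparison none of the 3 was called. Psmb8 was at 0.27, Psmb9 at 0.87 and Psmb10 at −0.06, with adjusted p of 0.756, 0.492 and 0.965 from edgeR. The replicate spread was wide, since WTF mouse 1090 had the lowest Psmb8 of the females and mouse 1089 stood far above the other WTF mice in Psmb9. With 1089 left out, DESeq2 called Psmb9 higher in KOF than in WTF, at a log2 fold change of 1.89 and an adjusted p of 0.00856. EdgeR with the same mouse left out called 0 members and 0 of 9834 genes.

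None of the constitutive partners was called between KOF and KOM. Psmb5, the chymotrypsin-like subunit, had 29.6, 26.1 and 50.0 CPM in WTF, 43.0, 36.8 and 37.3 in KOF, 35.9, 41.2 and 41.8 in WTM and 47.1, 30.8 and 42.9 in KOM. Psmb6, the caspase-like subunit, had 205, 226 and 438 CPM in WTF, 269.8, 246 and 220.3 in KOF, 299.7, 267 and 251 in WTM and 255, 245 and 268 in KOM, where 1091 was at 2.03 times the mean of the other WTF mice. Psmb7 had 227, 198 and 180.0 CPM in WTF, 136, 116 and 145 in KOF, 122, 181 and 128 in WTM and 150.0, 158 and 158 in KOM. KOF relative to KOM was −0.04, −0.05 and −0.23, with adjusted p of 0.930, 0.856 and 0.376 from edgeR.

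As a share of its constitutive partner, Psmb8 stood at 199%, 128% and 162% of Psmb5 in WTF, 192%, 212% and 132% in KOF, 95.7%, 90.2% and 109% in WTM and 69.6%, 104% and 82.8% in KOM. All 6 females were above all 6 males. Psmb9 was never more than 24.7% of Psmb6, and Psmb10 ran from 12.1% to 42.7% of Psmb7. For Psmb9 both KOF and WTM lay above KOM without overlap, while for Psmb10 the KOF and KOM livers overlapped. No test was made of these shares.

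**Figure D5:**
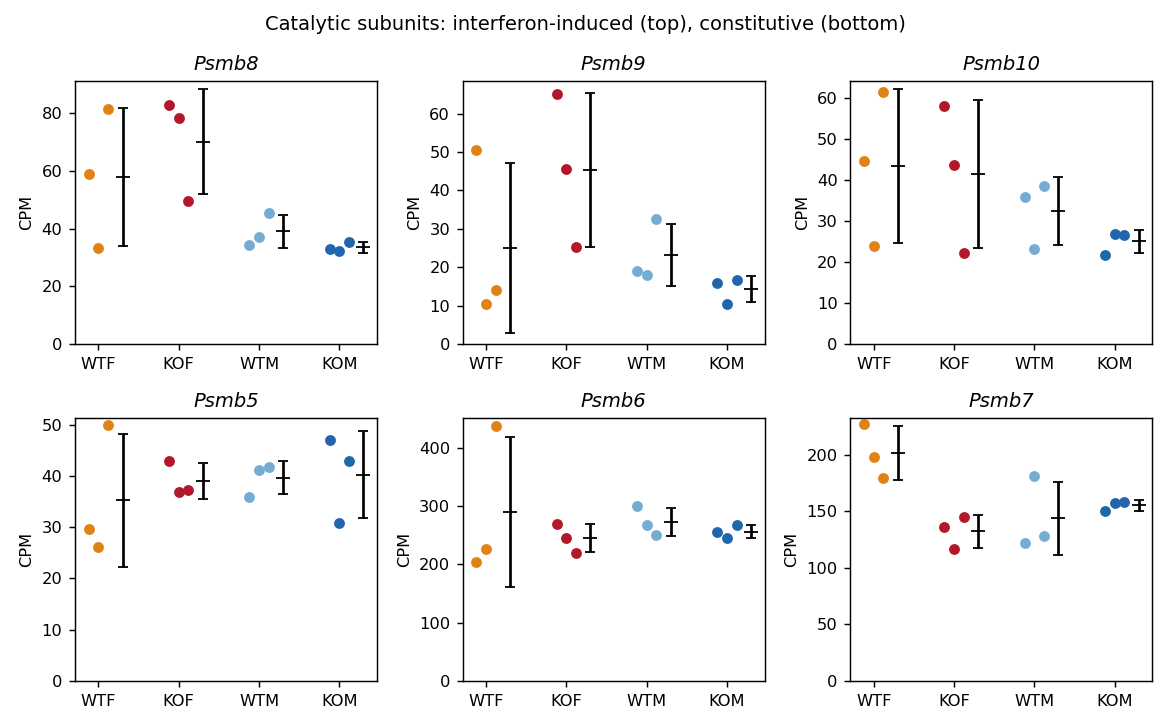
CPM of the immunoproteasome subunits Psmb8, Psmb9 and Psmb10 (top) and of their constitutive counterparts Psmb5, Psmb6 and Psmb7 (bottom) in each mouse (points; black bars, mean ± SD, n = 3 mice; axes start at 0). For Psmb8 the KOF livers (49.4 to 82.8 CPM) lie above the KOM livers (32.1 to 35.5 CPM), and the bottom row shows no such separation for Psmb5 or Psmb6.

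The promoters of Psmb8 and Psmb9, which were higher together in KOF than in KOM, and of Psmb5, the partner that was not called, are shown from RefSeq on GRCm38.p6. Psmb8 is at chr17:34197945-34198244 on the plus strand, Psmb9 at chr17:34187281-34187580 on the minus strand and Psmb5 at chr14:54617946-54618245 on the minus strand. Capitals mark TGACNNNGC, which Psmb5 alone of the 3 holds.
Psmb8: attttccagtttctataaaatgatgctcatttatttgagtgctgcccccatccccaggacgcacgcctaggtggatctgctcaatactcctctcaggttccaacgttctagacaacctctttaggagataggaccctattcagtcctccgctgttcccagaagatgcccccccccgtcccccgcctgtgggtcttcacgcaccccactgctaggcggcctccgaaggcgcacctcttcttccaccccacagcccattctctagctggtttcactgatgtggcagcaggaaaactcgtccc
Psmb9: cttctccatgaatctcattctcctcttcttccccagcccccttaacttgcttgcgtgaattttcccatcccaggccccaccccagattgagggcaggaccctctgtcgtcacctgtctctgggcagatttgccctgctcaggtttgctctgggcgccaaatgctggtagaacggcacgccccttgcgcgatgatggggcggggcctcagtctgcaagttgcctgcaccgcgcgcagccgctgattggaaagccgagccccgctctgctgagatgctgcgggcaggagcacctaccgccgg
Psmb5: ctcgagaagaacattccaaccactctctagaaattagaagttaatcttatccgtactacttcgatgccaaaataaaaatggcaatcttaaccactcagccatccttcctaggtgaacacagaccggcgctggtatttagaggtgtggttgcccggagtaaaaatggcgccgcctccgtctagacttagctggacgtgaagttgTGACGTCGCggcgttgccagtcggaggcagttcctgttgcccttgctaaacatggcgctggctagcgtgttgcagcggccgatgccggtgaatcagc
In Psmb5 the match begins 47 bases before the start site. Searched on both strands, TGACNNNGC occurred in 6 of the 41 members with a window (14.6%; Psmb5, Psmb6, Psmc6, Psmd12, Psmd9 and Psme4), against 13.99% of 27025 genes, so it was about as frequent among them as elsewhere.

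Markers of macrophages were also higher in KOF than in KOM. The Kupffer cell and macrophage list, 11 genes such as Clec4f, Vsig4, Cd5l, Marco and C1qb, summed to 529.7 to 739 CPM in WTF, 417 to 965 in KOF, 107 to 687 in WTM and 124 to 276 in KOM. Within groups, the order of mice by marker sum matched that by immunoproteasome sum only in part. KOF 1070 was the highest of its group in both (965 and 206 CPM), and WTF 1090 the lowest in both (529.7 and 67.8 CPM). In WTM, 1086 had the highest marker sum (687 CPM) and the lowest immunoproteasome sum (78.4 CPM). There 1087 had the lowest marker sum (107 CPM) and the highest immunoproteasome sum (117 CPM). KOM 1081 likewise had the lowest marker sum (124 CPM) and the highest immunoproteasome sum (78.9 CPM). EdgeR called 7 of its 9 tested genes higher in KOF than in KOM and 0 lower, and 3 of 10 higher in WTF than in WTM. In KOF relative to WTF, 7 of 10 were negative and 0 were called. Cd68 of that list reached 2.44 CPM at most. Clec4f, the defining Kupffer marker, had 37.5, 26.7 and 55.7 CPM in WTF, 45.7, 31.7 and 42.1 in KOF, 4.59, 14.6 and 7.43 in WTM and 20.4, 11.3 and 9.12 in KOM. The lymphocyte and leukocyte list of 10 genes summed to 57.9 to 84.1 CPM in WTF, 57.8 to 114 in KOF, 24.8 to 57.8 in WTM and 28.3 to 53.9 in KOM, with the T cell marker Cd3e at 0 in 9 mice. The part of these cells in the Psmb8 and Psmb9 values was not tested, and in whole liver RNA more cells of a type and more RNA per cell cannot be told apart.

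Of the genes that work with the immunoproteasome, Irf1 was called between KOF and KOM. Irf1, an interferon-induced factor that acts on Psmb9 and Tap1, was at 0.89 (standard error 0.27, 95% interval 0.32 to 1.46) (adjusted p = 0.0429 from edgeR). It had 122, 66.7 and 56.0 CPM in KOF and 34.3, 56.4 and 44.1 in KOM, and these groups overlapped. Wild type livers had 133, 59.7 and 114 CPM in WTF and 65.0, 40.2 and 65.0 in WTM. The mean was thus no higher in KOF (81.6 CPM) than in WTF (102 CPM).

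The 3 members called lower in KOF than in KOM were all non-ATPases of the cap. Psmd11 had 97.5, 96.3 and 88.9 CPM in WTF, 114, 97.2 and 77.1 in KOF, 159, 135 and 145 in WTM and 147, 177 and 168 in KOM, and both female groups lay below both male groups. Its KOF to KOM change was −0.76 (standard error 0.17, 95% interval −1.12 to −0.39) (adjusted p = 0.0112 from edgeR). Psmd3 gave −0.69 (standard error 0.19, 95% interval −1.10 to −0.28) (adjusted p = 0.0317 from edgeR). Psmd4 had 195, 232 and 429.7 CPM in WTF, 185, 177 and 189.6 in KOF, 315, 264 and 217 in WTM and 314, 226 and 277 in KOM and gave −0.56 (standard error 0.16, 95% interval −0.89 to −0.23) (adjusted p = 0.0318 from edgeR). When all 12 mice shared 1 estimate of the spread, Psmd11 alone stayed called, and Psmb9, Psmb8, Psmd3 and Psmd4 had adjusted p of 0.0749, 0.0508, 0.113 and 0.264 from edgeR. Leaving out any 1 of the 6 mice left 3 to 5 members called, with Psmb8 and Psmb9 called each time. Leaving out KOM mouse 1081 lost Psmd11 and Psmd4, KOF 1105 lost Psmd3 and gained Psmb10, and KOF 1070, KOF 1104 and KOM 1075 each lost Psmd3 and Psmd4.

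Other genes of the pathway outside the symbol pattern were taken from a list of 24 names, alternative symbols included, of which 21 are in the tables. In females KOF against WTF, 0 of the 19 tested were called by edgeR or DESeq2, and in males 0 of 18. Pomp, the core maturation factor, had 926, 724 and 2028 CPM in WTF, 1023, 950.1 and 645 in KOF, 892, 641 and 854 in WTM and 808, 718 and 755 in KOM, with mouse 1091 far above every other. Its female log2 fold change was −0.50 (standard error 0.38, 95% interval −1.36 to 0.35). Adrm1, the ubiquitin receptor Rpn13, had 35.3 ± 22.5 CPM in WTF, 27.8 ± 7.36 in KOF, 33.5 ± 8.65 in WTM and 42.8 ± 3.87 in KOM. Its WTF mice had 19.9, 24.9 and 61.2 CPM, the last of them 1091. Nfe2l1 had 106 ± 26.2 CPM in WTF, 113 ± 8.71 in KOF, 138 ± 19.9 in WTM and 149 ± 17.4 in KOM. The female changes of Adrm1 and Nfe2l1 were −0.35 (standard error 0.41, 95% interval −1.27 to 0.58) and 0.08 (standard error 0.24, 95% interval −0.46 to 0.62). Without 1091 the WTF mean CPM of Pomp and of Adrm1 lay below the KOF mean, so both negative changes rest on that mouse.

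Vcp, the ATPase p97 that extracts substrates for the proteasome, had 476, 480.1 and 375 CPM in WTF, 289, 285 and 248 in KOF, 414, 392 and 370.1 in WTM and 469, 502 and 436 in KOM. The KOF livers stood below the other 9 livers. KOF relative to WTF was −0.71 (standard error 0.22, 95% interval −1.20 to −0.21) (adjusted p = 0.182 from edgeR), KOF relative to KOM was −0.77 (standard error 0.15, 95% interval −1.08 to −0.45) (adjusted p = 0.00365 from edgeR), and the difference between the sexes was −0.95 (standard error 0.25, 95% interval −1.48 to −0.42), with an adjusted p of 0.107 from edgeR and 0.00247 from DESeq2. AI314180, the mouse Ecpas gene for an adaptor that ties the cap to the core, was the other pathway gene called lower in KOF than in KOM, at −0.55 (standard error 0.16, 95% interval −0.90 to −0.20) (adjusted p = 0.0406 from edgeR).

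The spread between mice set the limits of these comparisons. The median coefficient of variation over the 46 members was 19.6% in WTF, 12.6% in KOF, 14.9% in WTM and 11.5% in KOM. Without 1091 it was 9.29% in WTF. Mouse 1091 had the highest value of the 12 for 14 members and the lowest for 5, and it exceeded the mean of the other WTF mice by over 1.5-fold for 11 members and fell below it by as much for 7. Mouse KOF 1105 had the lowest value of the 12 for 16 members. Reads may also be shared with processed pseudogenes or with overlapping genes, because the sources used here do not give the strand setting of the counting. A pseudogene, Gm15542, lies within the span of Psmd13.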

How the data were processed

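Liver RNA of 12 mice, 3 in each of 4 groups of genotype and sex, was read by QuantSeq 3′ sequencing. The values are the raw counts per gene that the authors deposited in 2 tables. The submitters' processing notes name STAR, DESeq and mm10, and the study describes trimming, mapping and analysis on an Illumina cloud platform. The sources used here give neither versions nor the strand setting. The labels speak of RNA pooled from 3 mice, while the study's methods describe individual livers, and each library was taken as 1 mouse. Groups came from the labels.

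CPM were computed on the totals of the 9806 genes that passed filterByExpr over all 12 libraries, multiplied by their TMM factors (0.901 to 1.06). The row Rn45s took 5.68% to 17.9% of counts, and 25 symbols read as dates. Tests used edgeR 4.0.16 quasi-likelihood in R 4.3.3 (filterByExpr, TMM scaling, library totals over the genes tested), with Benjamini-Hochberg adjustment over all genes tested and a threshold of 0.05. DESeq2 1.42.0, limma 3.58.1 voom, other scalings, other filters, 1 fit of all 12 mice, a term for sex and leaving out each mouse were alternatives, and library totals over all rows were added after the data were seen. Intervals are 95%. The scripts were tested on simulated data. No authors' comparison columns and no columns of other samples were used.

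The members, gene lists and marker lists were chosen with earlier results of these data known. A result of the antigen presentation list is not reported here. Genes are named if they are a catalytic subunit or its interferon-induced counterpart, the highest or lowest of a class, among the 3 smallest p-values of a comparison, or called by edgeR or DESeq2, and Pomp, Adrm1 and Nfe2l1 always. Members called or separated by other settings, Psmd4 in females, Clec4f, Cd68, Cd3e and Psma7 were named after their values were seen. Promoters are RefSeq windows on GRCm38.p6, matched by symbol for 41 of 49 members.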

Additional observations from a re-analysis of the deposited data

Results flagged for a closer look

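The genotype difference of Psmd13 differed between the sexes by a direct test. The change in Siah2-/- females minus that in males was −1.64 on the log2 scale, from an interaction term in edgeR with an adjusted p of 0.0483. EdgeR lost this call without any 1 of 11 mice (adjusted p up to 0.165), while DESeq2 kept it whichever mouse was omitted (adjusted p up to 0.0105). In females the change was −1.40, not called by edgeR with its filter in the fit of females alone (adjusted p = 0.0793). In males it was 0.25, and the 3 WTF livers stood above the other 9.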

How the results depend on the processing

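The 20 log2 fold changes of named members kept their sign in all 313 recomputations, while a call was lost in 24 of these and gained in 23. The median over members for WTF against WTM, 0.13, was −0.10 without WTF 1091. For KOF against WTF, where edgeR called 0 members, DESeq2 called 2, voom with quality weights 6, no filter 2 and the fit of all 12 mice 2. For the difference between sexes, with 1 called, DESeq2 called 2, quality weights 4 and no filter 2 (Psmd13 and, in the positive direction, Psmb9). For WTF against WTM, with 0 called, DESeq2 called 1, quality weights 2, no filter 1 and all 12 mice 1. For KOF against KOM, with 5 called, the fit of all 12 mice called 1. Leaving out 1 mouse gave 0 to 6 members by edgeR and 1 to 5 by DESeq2 for KOF against WTF, 0 to 2 and 1 to 6 for the difference between sexes, 0 to 2 and 0 to 2 for WTF against WTM, 3 to 5 and 3 to 5 for KOF against KOM, and 0 to 0 for KOM against WTM and for both sexes combined. The cause of these changes was not tested. With totals excluding Rn45s, the summed members were at 6245 CPM in WTM and 6342 in KOM, against 5589.5 and 5696, because the divisor is smaller. No paired analysis was possible because each mouse number occurs in 1 group only. With 3 mice per group and a median interval of 0.57 to either side in females, smaller changes of most members were not detectable.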
